A study of Mus musculus with 2 samples.

Results

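Wnt ligands are secreted, lipid-modified proteins that signal over short distances between cells. The 10 ligands described here are Wnt3, Wnt3a, Wnt4, Wnt5a, Wnt6, Wnt7b, Wnt10a, Wnt10b, Wnt11 and Wnt16. They were taken by gene symbol from 2 single-cell RNA count matrices of mouse dorsal skin, which list 32285 genes and among them 19 Wnt genes. Both libraries came from skin on postnatal day 3, and Dox was the treatment given for each. The control library had the genotype Wildtype and the induced library had the genotype miR-200b induced. The labels describe neither the induction construct, nor the cells that carry it, nor the number of animals behind a library. Epidermal and dermal suspensions had been mixed 30 to 70 before droplet capture, and messages were counted near their 3′ ends.

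Wnt proteins are acylated by Porcn, carried to the cell surface by Wls, and bound on receiving cells by Frizzled receptors with Lrp5 or Lrp6. Stabilised beta-catenin then acts with TCF and LEF factors on target genes, while Wnt5a and Wnt11 are known mainly for signalling that does not use beta-catenin. In skin, epidermal Wnt ligands sustain the basal layer and the exchange with the dermis that starts hair follicles, and Wnt10b in the hair matrix and Wnt5a in the dermal papilla are classical follicle ligands.

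The induced genotype names microRNA-200b, so its mature strand and the ligand 3′ untranslated region that can pair with its seed are shown first. RefSeq places the mature strand at chr4:156055685-156055706 on the minus strand (GRCm38.p6). The capitals mark bases 2 to 8 of the microRNA and, in the Wnt5a region, the 7 bases that pair with them.
mmu-miR-200b-3p: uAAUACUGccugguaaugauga
Wnt5a 3′ UTR: ttcttcagttgtatattgacCAGTATTc

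The Wnt5a stretch lies at chr14:28526409-28526436 on the plus strand (GRCm38), and its match begins at base 3489 of a 3′ UTR of 4508 bases. Of the 10 ligands, only Wnt5a held the 7-base match CAGTATT, which 13.3% of 20829 genes with an annotated 3′ UTR held. The shorter match AGTATT was present in Wnt5a and Wnt16, against 32.2% of genes, and the 8-base form that adds a final A was in none of the ligands, against 3.16% of genes. A match describes letters and is not a measured site.

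Wnt4, Wnt3 and Wnt10a were among the leading genes of the basal epidermal-like clusters E0, E1 and E5 although Wnt genes were left out of the clustering. No RefSeq promoter window was at hand for Wnt10a. The windows of Wnt4 and Wnt3 (250 bases before to 50 after the start, GRCm38.p6) are printed with the GC box GGGCGG, on either strand, in capitals. The Wnt4 window is chr4:137277385-137277684 and the Wnt3 window is chr11:103773925-103774224, both on the plus strand.
Wnt4 promoter: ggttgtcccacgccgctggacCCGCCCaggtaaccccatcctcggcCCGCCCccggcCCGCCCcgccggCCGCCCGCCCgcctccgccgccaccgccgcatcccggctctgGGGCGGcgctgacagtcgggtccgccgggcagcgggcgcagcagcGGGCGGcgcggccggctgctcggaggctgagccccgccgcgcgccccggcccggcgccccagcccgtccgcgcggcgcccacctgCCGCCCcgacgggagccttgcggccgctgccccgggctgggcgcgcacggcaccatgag
Wnt3 promoter: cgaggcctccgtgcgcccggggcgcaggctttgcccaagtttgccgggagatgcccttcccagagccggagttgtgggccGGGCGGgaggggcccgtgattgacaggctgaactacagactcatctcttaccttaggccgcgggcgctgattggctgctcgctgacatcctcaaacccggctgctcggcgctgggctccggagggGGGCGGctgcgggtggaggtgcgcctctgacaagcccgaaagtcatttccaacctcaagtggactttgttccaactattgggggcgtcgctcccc

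The Wnt4 window held 8 GC boxes and the Wnt3 window held 2, and 35.7% of 32851 promoter windows held at least 1. RefSeq windows were at hand for 7 of the ligands. The Wnt3a window held 9 boxes and that of Wnt6 held 6, while the windows of Wnt10b and Wnt16 held 0. The TCF/LEF core CTTTGA, which 16% of all windows held on either strand, occurred only in 1 of the 2 Wnt11 windows. Wnt6 (chr1:74771892-74785322) and Wnt10a (chr1:74791516-74804179) are neighbours on the plus strand with 6193 bases between them.

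Filtering and doublet removal left 4816 control cells with a median of 14584.5 unique molecular identifiers (UMIs, 1 per captured RNA molecule) and 4890 induced cells with a median of 17850.5. The libraries shared 74 of their barcodes, 8 of them among kept cells. Cells were clustered with all Wnt pathway genes left out, and clusters were named from marker lists, so each name is a resemblance. Of 41 epithelial clusters (numbered E0 onwards), 28 consisted to 95% or more of a single library, against 6 of 24 non-epithelial clusters (N0 onwards). There was 1 library per group and therefore no test. Every interval is a 95% interval of counting error only, and a difference below compares these libraries, not the conditions. Levels are CPM, the UMIs of a gene divided by all UMIs of the class and scaled in the usual way, and since long and short messages are captured differently they are compared between cells and not between genes.

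Most of the ligand RNA lay in the epithelium, as did most RNA of any kind. Epithelial cells were 82.1% of kept control cells and 84.0% of kept induced cells, and they held 89.3% and 94.4% of all UMIs of kept cells. Of the UMIs of Wnt3, Wnt3a, Wnt4, Wnt7b and Wnt10b, at least 99.4% lay in epithelial cells in each library. For Wnt10a the share was 97.4% in the control and 99.5% in the induced library, for Wnt6 96.8% and 97.3%, and for Wnt16 83.9% and 94.6%, so that Wnt16 did not stand clear of the share of all UMIs. Wnt5a and Wnt11 were divided between the epithelium and the other cells and lay below that share. For Wnt5a 25.8% of the control and 64.7% of the induced UMIs lay in epithelial cells, and for Wnt11 53.2% and 81.9%.

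**Figure D1:**
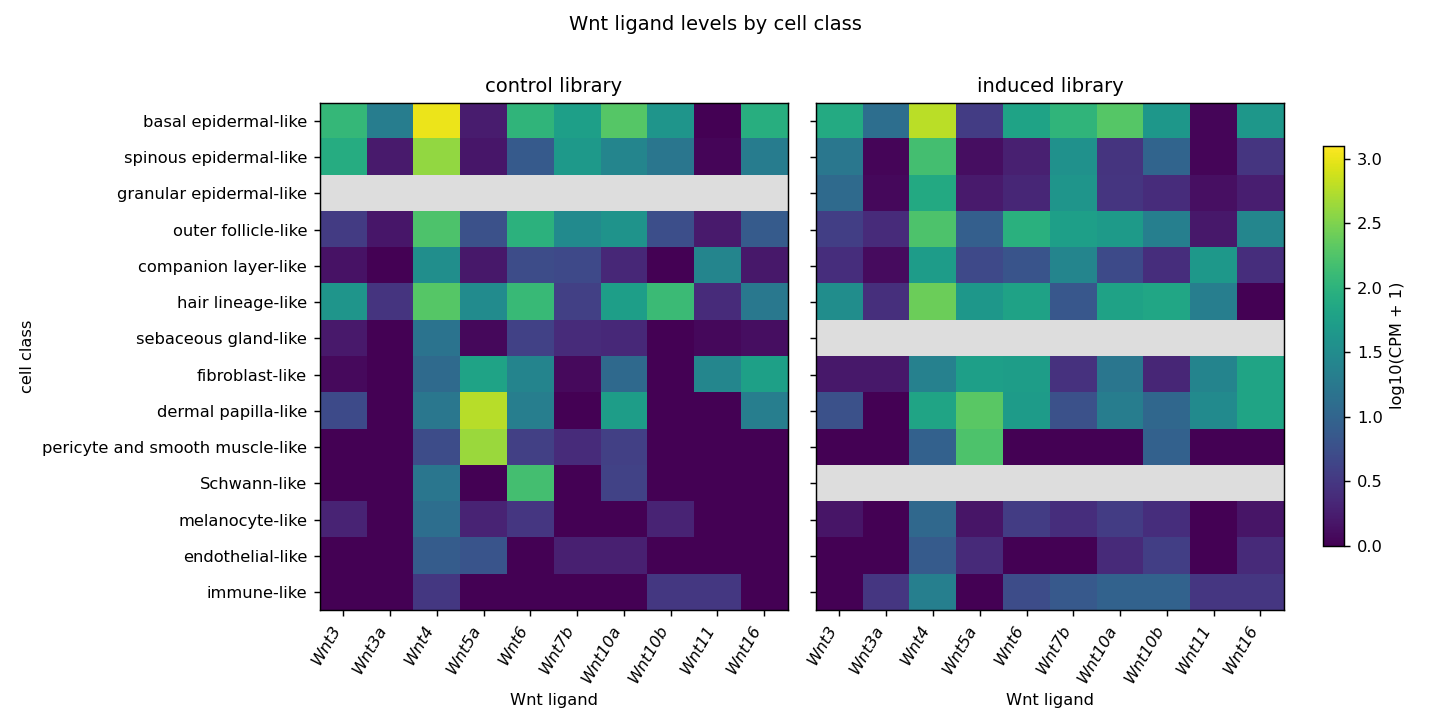
Level of each ligand (columns) in each cell class (rows) of the control library (left) and the induced library (right), as log10 of CPM plus 1; grey rows have under 20 cells in that library. Wnt4 is brightest in basal epidermal-like cells and Wnt5a in dermal papilla-like cells of both libraries.

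Classes with at least 20 cells of a library were ranked, with the hair lineage and the outer follicle each pooled. Among them, basal epidermal-like cells carried the highest level of Wnt3, Wnt3a, Wnt4, Wnt7b and Wnt10a in both libraries. Their intervals lay above the next class in each library, except for Wnt3a in the induced library, where 1 UMI in immune-like cells gave a wide interval that reached them. Outside that ranking, the 10 induced hair shaft-like cells held Wnt3 at 169 CPM (122 to 228, 42 UMIs), above the induced basal cells. The 10 control hair shaft-like cells held it at 76.0 CPM, below the control basal cells. The control basal cells lay in clusters E1, E29 and E32 (624 cells in the class). The induced basal cells lay in E0, E4, E5, E25 and E28 (1424 cells). Of the 9 ligands that reached 20 UMIs summed over the libraries, 1 was higher by 2-fold or more in the induced library and 0 were lower. Over all 13076 genes past the same minimum, 10.9% were higher and 7.59% lower by that much. The median log2 ratio, induced over control, was -0.56 over the ligands and 0.04 over those genes.

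Wnt4, a ligand of the epidermis and many other epithelia, was at 1031 CPM in control cells (12907 UMIs) and at 604 CPM in induced cells (21156 UMIs). The log2 ratio was -0.77 (interval -0.80 to -0.74). The 3 control clusters ranged from 803 to 1174 CPM and the 5 induced clusters from 484 to 663 CPM, so the ranges did not overlap, although clusters of 1 library are not replicates. With each cell thinned to 2000 UMIs, 83.8% of control cells (80.7% to 86.6%) and 65.4% of induced cells (62.9% to 67.9%) had a Wnt4 UMI. Before thinning the shares were 99.7% and 98.1%. In melanocyte-like cells, which give a background of free RNA, the thinned shares were 1.27% and 2.13%, with median depths of 10156 and 7522.5 UMIs against 18878 and 24258 UMIs in the basal cells.

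Wnt3, which signals through beta-catenin, was at 115 CPM in control and 78.4 CPM in induced basal cells (log2 ratio -0.56, -0.65 to -0.47). Wnt3a, its close relative, was at 19.8 and 12.1 CPM (-0.71, -0.94 to -0.47). Wnt6 was at 105 and 61.1 CPM (-0.79, -0.89 to -0.69). These lower levels stayed within 2-fold. With the cells clustered after centring each gene per library, the basal ratios were -0.26 for Wnt3, -0.39 for Wnt3a and -0.54 for Wnt4, of the same sign and smaller.

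Wnt16 was at 85.7 CPM in control and 42.9 CPM in induced basal cells, a log2 ratio of -0.998 (-1.11 to -0.88), just short of 2-fold. The control clusters held 73.1 to 93.2 CPM and the induced clusters 24.6 to 65.4 CPM. Thinned shares of cells with a Wnt16 UMI were 15.2% (12.5% to 18.3%) and 7.47% (6.15% to 8.97%). Of melanocyte-like cells 0 of 79 and 0 of 235 had one, with intervals that reach 4.56% and 1.56%.

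Wnt7b, which in skin is known from the epidermis and hair follicle, went the other way. It was at 55.6 CPM in control and 105 CPM in induced basal cells (log2 ratio 0.92, 0.80 to 1.04). The control clusters lay between 43.0 and 61.7 CPM and the induced clusters between 99.2 and 112 CPM. Thinned shares of Wnt7b-positive cells were 11.1% (8.72% to 13.8%) and 17.7% (15.8% to 19.8%), against 0 of 79 control and 2 of 235 induced melanocyte-like cells.

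Wnt10a was at 193 CPM in both libraries (log2 ratio 0.00, -0.07 to 0.07), and Wnt10b was at 39.9 and 42.3 CPM (0.08, -0.06 to 0.23). For both, the interval excludes a 2-fold difference between these libraries. Wnt5a was sparse, with 9 control and 88 induced UMIs, or 0.719 and 2.51 CPM (log2 ratio 1.81, 0.82 to 2.98). Its background in melanocyte-like cells was 1.03 and 0.512 CPM, from 1 UMI in each library, so the control level did not exceed the background and the count of 1 higher ligand rests on it. Cluster E4, led by Ccl27a, held 42 of the induced Wnt5a UMIs at 6.80 CPM. Wnt11 had 0 control and 4 induced UMIs.

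Basal marker genes also differed between the libraries. Their summed level was 45724 CPM in the control and 24951 CPM in the induced library, with 4 of 9 markers higher and 5 lower in the induced library and none at 0. Outer root sheath markers summed to 1723 and 3063 CPM, with 8 of 10 higher and Shisa2 at 0 in the control library. Their part in the ligand levels was not tested.

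**Figure D2:**
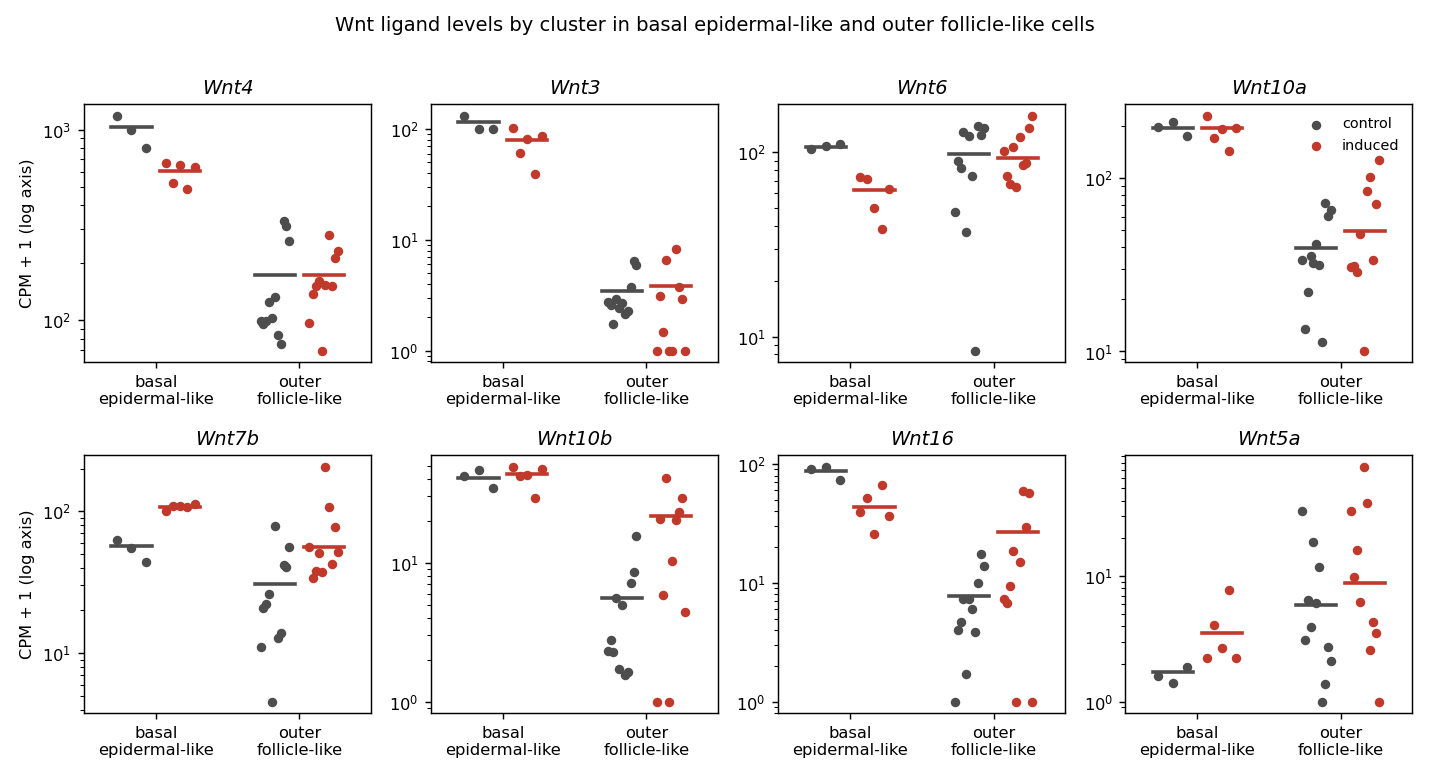
Level of 8 ligands in each cluster with at least 20 cells of a library (points, CPM plus 1 on a log axis; bars are the pooled level of the class) for basal epidermal-like and outer follicle-like cells. In basal cells the induced points of Wnt4, Wnt6 and Wnt16 lie below the control points and those of Wnt7b above them; in the outer follicle the points overlap.

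In spinous epidermal-like cells, the layer just above the basal cells, 5 of 7 ligands past the UMI minimum were lower by 2-fold or more in the induced library and 0 were higher. Over 10979 genes the shares were 15% lower and 8.89% higher. The median log2 ratio was -2.35 over the ligands and -0.17 over those genes. Wnt3 was at 81.2 CPM in the control and 15.9 CPM in the induced library (log2 ratio -2.35, -2.60 to -2.10). Wnt4 was at 390 and 147 CPM (-1.41, -1.50 to -1.32). Wnt10a was at 25.03 and 1.93 CPM (-3.70, -4.43 to -3.03), and Wnt16 at 19.2 and 2.03 CPM (-3.24, -3.97 to -2.59). Wnt6 was at 6.48 and 0.869 CPM, from 58 and 9 UMIs (-2.90, -4.10 to -1.88). Wnt7b, at 46.2 and 36.5 CPM, and Wnt10b, at 15.3 and 9.08 CPM, stayed within 2-fold.

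The spinous comparison set cluster E12 (273 control cells) against cluster E16 (223 induced cells), and these clusters differed in basal markers. The 9 basal markers summed to 25452 CPM in control and 2103 CPM in induced spinous cells, all 9 lower in the induced library and none at 0. Krt5 was at 5437 CPM in E12 and 262 CPM in E16. The 10 spinous markers summed to 64942 and 73132 CPM, 7 of them higher in the induced library. The 14 granular markers, of the layer above, summed to 736 and 2256 CPM, with 8 higher and 6 lower in the induced library and Rptn at 0 there. Median depths were 27025 and 46753 UMIs. Beside them stood cluster E8, with 9 control and 275 induced cells, which no marker list named and which was led by Krt16 and Clca3a2. In its induced cells the basal markers summed to 23476 CPM and the spinous markers to 15475 CPM.

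Ligand levels in the induced cells of E8 were 332 CPM for Wnt4, 41.8 for Wnt3, 86.1 for Wnt7b, 34.7 for Wnt10a, 31.4 for Wnt10b, 9.98 for Wnt16 and 3.64 for Wnt6. With the E8 cells added to the spinous cells of both libraries, Wnt10a was at 25.9 and 17.7 CPM (log2 ratio -0.55) and Wnt4 at 387 and 236 CPM (-0.71), both then within 2-fold. Wnt3 (-1.52), Wnt6 (-1.52) and Wnt16 (-1.71) remained past 2-fold. Wnt7b (0.40) and Wnt10b (0.39) then stood higher in the induced library. The size of the lower spinous levels thus depended on whether E8 was counted with them, and the part of the basal markers in it was not tested.

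**Figure D3:**
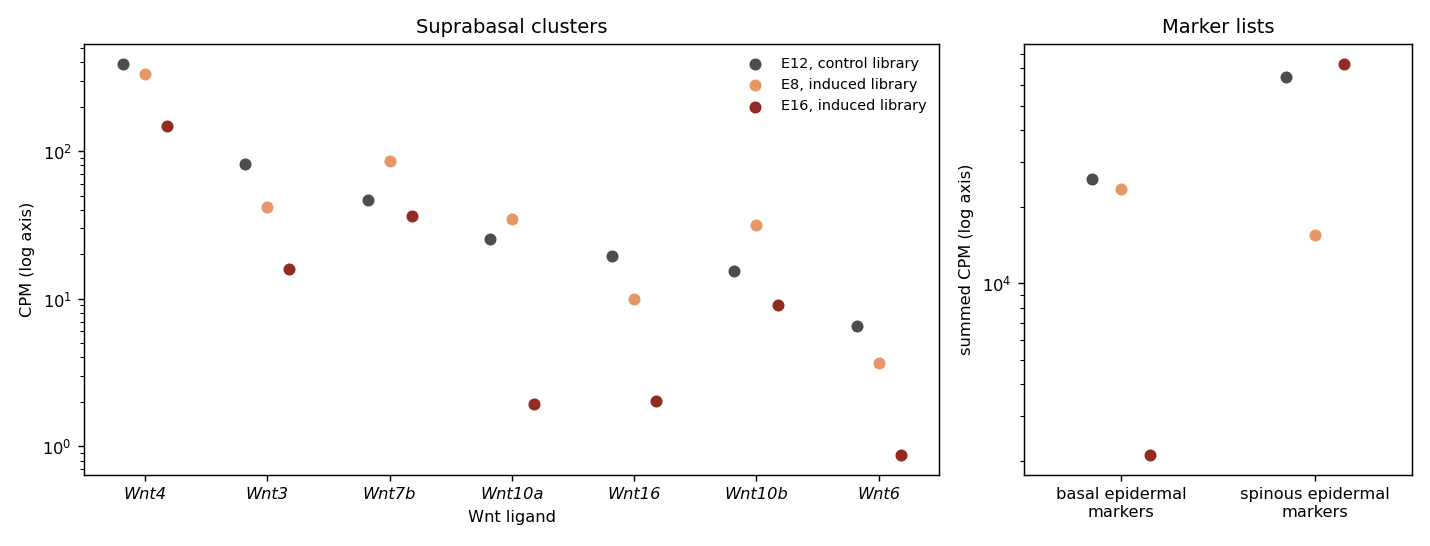
Left, level of 7 ligands (CPM, log axis) in the spinous epidermal-like clusters E12 of the control and E16 of the induced library and in the unnamed cluster E8 of the induced library; right, summed level of the basal and spinous marker lists in the same cells. E8 lies with E12 in basal markers, and E16 lies lowest in each of the ligands and in basal markers.

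Outer follicle-like cells pooled the outer root sheath-like and upper follicle-like clusters, a step taken after the clusters had been seen, because the names divided unevenly. The control library had 1486 and 1041 cells of these names and the induced library 1407 and 35. Most control cells lay in E2, E3, E7, E9, E10 and E11 and most induced cells in E6, E13, E14, E19 and E26. Of 10 ligands past the UMI minimum 3 were higher by 2-fold or more in the induced library and 0 were lower, beside 13.2% higher and 6.45% lower over 14316 genes. The median log2 ratio was 0.50 over the ligands and 0.06 over those genes. The 3 were Wnt10b, Wnt16 and the sparse Wnt3a.

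The count changed with how these cells were grouped. In outer root sheath-like cells alone 5 ligands were higher and 0 lower, beside 13.5% higher and 6.77% lower over 13857 genes, with a median log2 ratio of 0.95 over the ligands and 0.04 over those genes. Wnt10b was there at 2.14 and 21.2 CPM (log2 ratio 3.31), Wnt16 at 3.74 and 26.2 CPM (2.81), Wnt7b at 22.9 and 54.8 CPM (1.26), Wnt3a at 0.222 and 1.41 CPM from 5 and 35 UMIs, and Wnt3 at 1.42 and 2.86 CPM. In the clusters that held at least 20 cells of each library the ligands past 2-fold were instead Wnt5a and Wnt7b, and their values follow.

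Wnt10b was at 4.56 CPM in control and 20.8 CPM in induced outer follicle-like cells, from 181 and 527 UMIs (log2 ratio 2.19, 1.94 to 2.44). Wnt16 was at 6.80 and 25.7 CPM, from 270 and 651 UMIs (1.92, 1.71 to 2.13). Wnt3a had 21 and 35 UMIs, or 0.529 and 1.38 CPM (1.38, 0.56 to 2.24), but 10 and 0 UMIs in the clusters that held cells of both libraries. Thinned shares of cells with a Wnt10b UMI were 0.759% (0.458% to 1.18%) and 3.53% (2.63% to 4.62%), and with a Wnt16 UMI 1.36% (0.942% to 1.89%) and 5.85% (4.69% to 7.20%). In melanocyte-like cells a Wnt10b UMI was seen in 0 of 79 and 1 of 235 thinned cells.

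The high Wnt10b and Wnt16 levels lay in clusters made of induced cells, with at most 1 control cell. For Wnt10b they were highest in E19, at 39.9 CPM, and E6, at 28.2 CPM, and for Wnt16 in E26, at 58.5 CPM, and E6, at 56.2 CPM. The highest control clusters were E9 for Wnt10b, at 14.6 CPM, and E7 for Wnt16, at 16.3 CPM. In the 4 outer follicle-like clusters with at least 20 cells of each library (E3, E10, E21 and E22, with 878 control and 123 induced cells) Wnt10b was at 3.99 and 2.50 CPM, from 42 and 3 UMIs, and Wnt16 at 5.42 and 4.997 CPM, from 57 and 6 UMIs. The log2 ratios there were -0.68 (-3.01 to 0.97) and -0.12 (-1.62 to 1.09). The sign thus turned, on few induced UMIs and with intervals that include 0. E3, the upper follicle-like one of these pooled clusters, gave 327 of the control and 24 of the induced cells. Control upper follicle-like and outer root sheath-like cells held Wnt10b at 7.73 and 2.14 CPM and Wnt16 at 10.8 and 3.74 CPM. The part of this makeup in the turned sign was not tested. Upper follicle markers summed to 7206 and 4269 CPM over the whole class, with 1 of 11 higher in the induced library and none at 0, and their part in the ligand levels was not tested.

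Wnt7b was at 29.8 CPM in control and 54.7 CPM in induced outer follicle-like cells (log2 ratio 0.88, 0.76 to 0.99). In the clusters that held cells of both libraries it was also higher in the induced cells, at 35.1 and 77.5 CPM (1.14). In E10 the values were 10.0 and 55.3 CPM, in E21 3.54 and 36.4 CPM, in E22 77.2 and 204 CPM and in E3 40.6 and 50.8 CPM, so all 4 pairs had the same order. Thinned shares of Wnt7b-positive cells were 5.83% (4.95% to 6.82%) and 11.4% (9.75% to 13.1%).

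Wnt5a was at 4.94 and 7.78 CPM over the whole class (log2 ratio 0.66, 0.36 to 0.95) and at 10.5 and 32.5 CPM in the shared clusters (1.63, 1.07 to 2.17). Wnt4 was at 171 CPM in both libraries over the whole class, but its parts differed. In outer root sheath-like cells alone it was at 104 and 171 CPM (0.72, 0.65 to 0.80). It was at 215 and 134 CPM in the shared clusters (-0.68, -0.92 to -0.45). Control upper follicle-like and outer root sheath-like cells held Wnt4 at 260 and 104 CPM and Wnt5a at 0.872 and 8.05 CPM. The shared clusters mixed these cells in different proportions in each library, and the part of that in the Wnt4 and Wnt5a ratios was not tested. Wnt10a was at 38.3 and 48.4 CPM, and in outer root sheath-like cells alone at 25.5 and 47.4 CPM (0.89, 0.75 to 1.04). Wnt6 was at 96.8 and 92.5 CPM. Wnt6, a ligand known from epidermis and follicle, thereby differed little in the outer follicle (log2 ratio -0.06, -0.14 to 0.01) while its basal level was lower. In the induced library the outer follicle lay above basal cells in Wnt6, with intervals that did not overlap. In the control library Schwann-like (148 CPM), hair lineage-like (123 CPM), basal (105 CPM) and outer follicle-like cells (96.8 CPM) followed each other with overlapping intervals between neighbours.

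**Figure D4:**
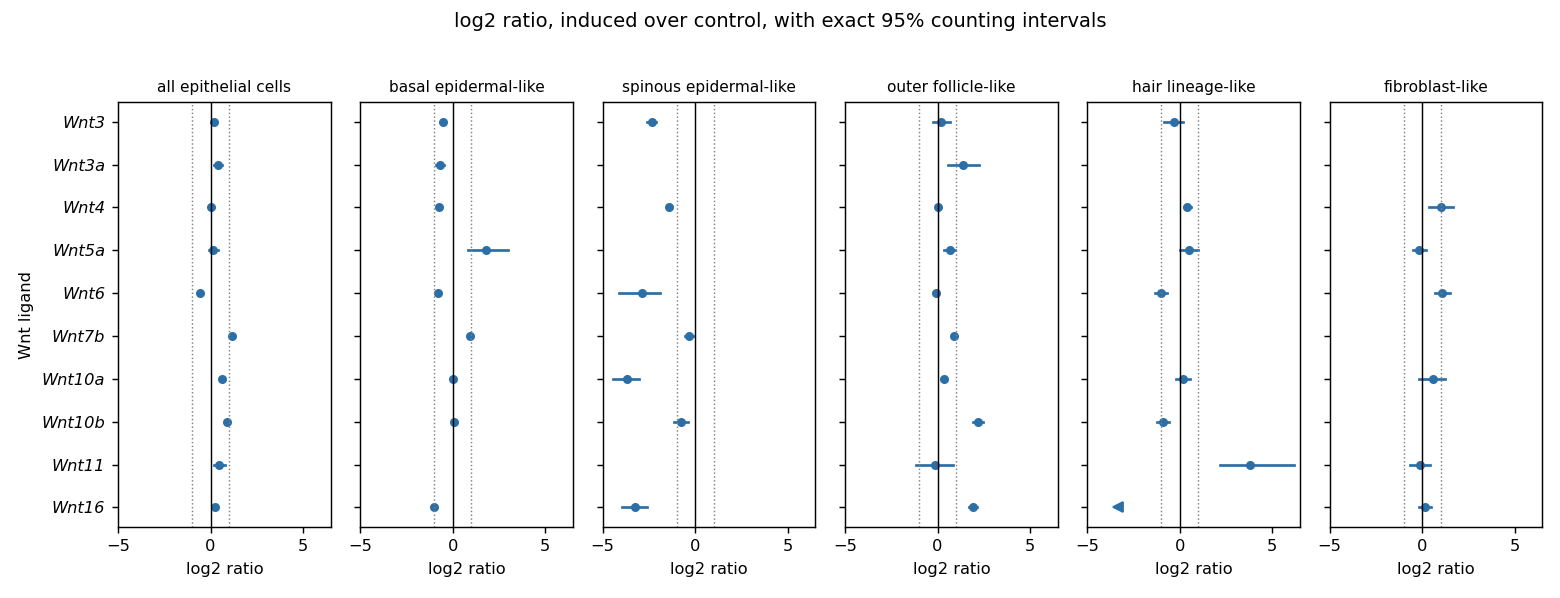
log2 ratio of CPM, induced over control, for each ligand that reached 20 UMIs summed over the libraries, in all epithelial cells and 5 classes. Points are ratios, lines exact 95% counting intervals and dotted lines 2-fold. The triangle marks a count of 0 in the induced library (Wnt16, hair lineage-like). The spinous points lie left of 0, and Wnt10b and Wnt16 lie right of the 2-fold line in the outer follicle.

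Hair lineage-like cells (hair matrix, inner root sheath and hair shaft pooled, 84 control and 79 induced cells) held the highest Wnt10b level of any class in both libraries. Wnt10b, a ligand of the growing hair bulb, was at 128 CPM (113 to 144) and 67.9 CPM (56.5 to 80.8), a log2 ratio of -0.91 (-1.23 to -0.60). Of 8 ligands past the minimum, 1 was higher and 2 were lower by 2-fold or more, beside 11.3% higher and 8.09% lower over 9872 genes. The median log2 ratio was -0.08 over the ligands and -0.04 over those genes. Wnt6 was at 123 and 60.9 CPM (-1.01, -1.34 to -0.69). Wnt16 had 35 UMIs in the control library (16.6 CPM) and 0 in the induced library. Set against a floor of 3 counts for the induced library (1.62 CPM), Wnt16 was 10.3-fold lower, a log2 ratio of -3.36. The counting interval of the ratio, which covers both counts, had an upper limit of -2.98. Wnt11 had 3 control and 37 induced UMIs, or 1.42 and 19.9 CPM (3.81, 2.15 to 6.15).

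The makeup of these few cells differed, with most control cells in E331 and E332 and most induced cells in E330 and E333. Hair matrix-like cells numbered 60 and 42, inner root sheath-like cells 14 and 27, and hair shaft-like cells 10 and 10. Inner root sheath markers summed to 1535 CPM in the control and 10542 CPM in the induced library, with 9 of 9 higher in the induced library, and hair shaft markers to 1587 and 7764 CPM, with 10 of 11 higher and Krt33b at 0 in the control library. Within hair matrix-like cells Wnt10b was at 111 and 78.9 CPM and Wnt6 at 129 and 99.1 CPM, while Wnt16 had 31 and 0 UMIs. In inner root sheath-like cells Wnt10b was at 207 and 37.1 CPM and Wnt6 at 139 and 22.6 CPM. Hair shaft-like cells held Wnt10b at 201 and 100 CPM and Wnt6 at 48.9 and 4.02 CPM, the latter from 9 and 1 UMIs. The Wnt11 UMIs of the induced library lay mostly in inner root sheath-like cells, 30 of 37, where the level was 48.4 CPM against 9.62 CPM in the control (2 UMIs). Wnt4 was at 191 and 253 CPM over the whole lineage (0.40) and Wnt5a at 30.3 and 42.5 CPM (0.49, -0.01 to 0.99). Their direction differed within the lineage. In hair matrix-like cells Wnt4 was at 167 and 321 CPM and Wnt5a at 13.97 and 42.5 CPM. Inner root sheath-like cells held Wnt4 at 168 and 126 CPM, with overlapping intervals, and Wnt5a at 154 and 58.1 CPM. Hair shaft-like cells held Wnt4 at 445 and 297 CPM and Wnt5a at 43.4 and 4.02 CPM (8 and 1 UMIs), both with overlapping intervals. The part of the makeup in the pooled ratios was not tested.

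Companion layer-like cells (168 control and 175 induced, in clusters E17 and E31 of both libraries) held the most Wnt11 among the ranked epithelial classes. It was at 24.5 CPM (20.4 to 29.3) and 44.5 CPM (38.5 to 51.1), a log2 ratio of 0.86, and nearly all of its UMIs lay in E17 (120 and 196). In the control library fibroblast-like cells, at 25.8 CPM, overlapped it. Wnt7b was at 3.82 and 24.9 CPM, from 19 and 112 UMIs (2.70, 1.99 to 3.49). Upper follicle markers summed to 33070 and 51804 CPM in this class, with 8 of 11 higher in the induced library, and their part was not tested.

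Wnt5a was highest in dermal papilla-like cells, the mesenchyme at the base of the follicle. The level was 579 CPM in 40 control cells (488 to 682, 144 UMIs) and 201 CPM in 83 induced cells (144 to 272, 41 UMIs). Pericyte and smooth muscle-like cells, all of cluster N3, came next with 427 CPM in 52 control cells (379 to 478) and 171 CPM in 46 induced cells (123 to 231). The papilla and pericyte intervals overlapped in the induced library and not in the control library. With under 50 cells in 1 library no ratio is given for either class.

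Depth and other cell types' markers differed there too. Median depths were 5589 and 1766 UMIs in papilla-like cells and 12421 and 5281.5 UMIs in pericyte-like cells. Epithelial markers summed to 921 and 2822 CPM in papilla-like cells, with 9 of 10 higher in the induced library and Cdh1 at 0 in the control library, and to 520 and 1659 CPM in pericyte-like cells. Papilla markers summed to 7691 and 5766 CPM in papilla-like cells. Fibroblast markers summed to 5138 and 3101 CPM in papilla-like cells, with 4 of 11 higher and 7 lower in the induced library. In pericyte-like cells they summed to 5724 and 2539 CPM, with 3 higher and 6 lower, Pdgfra and Mfap5 at 0 in both libraries and Lum at 0 in the induced library. Within the papilla-like cluster N6 Wnt5a was at 650 CPM in 28 control cells and 92.2 CPM in 55 induced cells, while N19 held 448 CPM in 12 control cells and 323 CPM in 28 induced cells. Of thinned papilla-like cells 65.0% (48.3% to 79.4%) and 29.7% (15.9% to 47.0%) had a Wnt5a UMI, against 0 melanocyte-like cells in each library. The part of depth and of the epithelial and fibroblast markers in this difference was not tested.

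Fibroblast-like cells (506 control and 270 induced) shared clusters N1, N2 and N14, while N0, N7, N9 and N15 were mostly control and N11 and N12 mostly induced cells. Wnt5a was at 61.3 and 55.1 CPM (log2 ratio -0.16, -0.50 to 0.18), Wnt11 at 25.8 and 23.8 CPM (-0.12, -0.66 to 0.40) and Wnt16 at 56.6 and 63.8 CPM (0.17, -0.16 to 0.50). The intervals exclude a 2-fold difference for all 3, yet with library-centred clustering, which drew the class differently, the ratios were -1.14, -0.74 and -0.94. Wnt16 was unevenly spread over the fibroblast-like clusters. It stood at 146 CPM in N0 and 68.9 CPM in N15 (control cells) and at 262 CPM in N12 (induced cells), at 18.7 and 27.3 CPM in the shared cluster N1 and at 4.65 CPM in N11 (induced cells). It had 0 UMIs in N2 and N14 of both libraries and in N7 and N9 of the control library. Wnt5a was also highest in these clusters, at 102 CPM in N0, 122 in N15 and 186 in N12, and Wnt11 was at 50.1, 25.6 and 78.6 CPM. For Wnt16 the fibroblast-like level of the induced library overlapped that of dermal papilla-like cells (63.6 CPM, 13 UMIs) and lay above basal cells. In the control library basal cells led.

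Of 6 ligands past the minimum in fibroblast-like cells, 2 were higher by 2-fold or more in the induced library and 0 were lower, beside 8.22% higher and 7.54% lower over 11138 genes. The median log2 ratio was 0.36 over the ligands and 0.01 over those genes. Wnt6 was at 24.1 and 51.6 CPM (log2 ratio 1.10, 0.68 to 1.51) and Wnt4 at 10.8 and 22.0 CPM (1.02, 0.38 to 1.65). The Wnt4 level in melanocyte-like cells was 12.3 and 10.2 CPM, and that of Wnt6 was 2.05 and 2.56 CPM. Wnt4 in control fibroblasts did not exceed this melanocyte-like level, while Wnt6 did in both libraries. Other classes varied in Wnt4, with 7.08 and 6.80 CPM in endothelial-like and 2.19 and 20.9 CPM in immune-like cells. The induced immune-like interval (10.0 to 38.5 CPM, 10 UMIs) overlapped that of induced fibroblast-like cells. Epithelial markers summed to 623 and 1458 CPM in fibroblast-like cells (9 of 10 higher in the induced library) and to 689 and 1194 CPM in melanocyte-like cells. Adipocyte markers summed to 220 and 3365 CPM in fibroblast-like cells, all 10 higher, with Adipoq, Cidec, Plin4, Car3 and Retn at 0 in the control library. In clusters with cells of both libraries (162 control and 113 induced cells) Wnt6 was at 27.8 and 39.3 CPM (0.50, -0.31 to 1.28), from 40 and 23 UMIs. Wnt4 was there at 12.5 and 25.6 CPM (1.04, -0.06 to 2.11), from 18 and 15 UMIs, and both intervals include 0. The part of these markers in the Wnt4 and Wnt6 values was not tested.

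Schwann-like cells, the glia of skin nerves, were a small further source of Wnt6. It was at 148 CPM in 31 control cells (109 to 196, 47 UMIs) and 164 CPM in 18 induced cells (102 to 251, 21 UMIs), with overlapping intervals. Of the other ligands only Wnt4 (5 and 2 UMIs) and Wnt10a (1 and 0 UMIs) were detected in these cells.

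**Figure D5:**
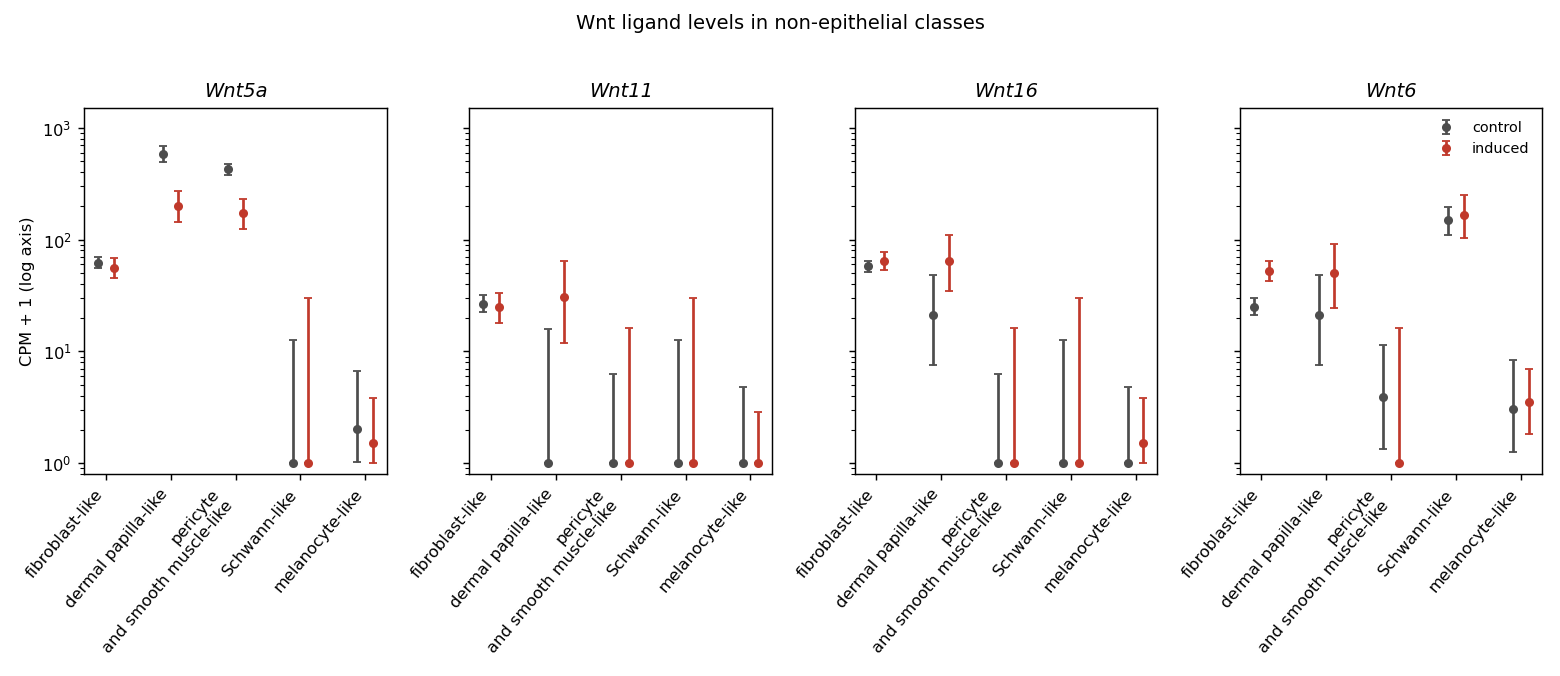
Level of 4 ligands (CPM plus 1, log axis; bars are exact 95% counting intervals) in non-epithelial classes of the control and induced libraries. Wnt5a is high in papilla-like and pericyte-like cells and lower in the induced library, while the Wnt16 and Wnt11 intervals of the libraries overlap in fibroblast-like cells.

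Over all epithelial cells no class name enters, so the ratios hold both the levels within classes and the makeup of the epithelium. Of 10 ligands 1 was higher by 2-fold or more and 0 were lower, beside 11.8% higher and 9.88% lower over 15938 genes. The median log2 ratio was 0.31 over the ligands and -0.06 over those genes. Wnt7b was the one, at 30.9 CPM in the control and 69.9 CPM in the induced library, from 2386 and 6866 UMIs (log2 ratio 1.18, 1.11 to 1.24). Thinned shares were 6.40% (5.65% to 7.21%) and 13.5% (12.4% to 14.6%) of cells. Wnt10b was at 14.2 and 26.0 CPM (0.88, 0.77 to 0.98), Wnt10a at 55.6 and 86.5 CPM (0.64) and Wnt6 at 71.4 and 47.8 CPM (-0.58, -0.64 to -0.52). Wnt4 was at 312 and 323 CPM (0.05, 0.03 to 0.07), Wnt3 at 31.2 and 35.9 CPM (0.20) and Wnt3a at 3.61 and 4.78 CPM (0.40). These 3 turned with the makeup of the epithelium, in which basal cells were 13.0% of kept control cells and 29.1% of kept induced cells. With the class levels of both libraries weighted by the control makeup, Wnt4 was at -0.50, Wnt3 at -0.81 and Wnt3a at -0.39, Wnt7b at 0.79, and 0 ligands were higher by 2-fold.

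Other genes of the pathway were read from lists of 61 genes, of which 50 passed the UMI minimum in all epithelial cells, with 4 higher and 11 lower by 2-fold or more against the same background of 11.8% and 9.88%. Porcn, the acyltransferase that Wnt secretion needs, was at 5.08 CPM in the control and 20.2 CPM in the induced library (log2 ratio 1.99). It was also higher in basal (3.52 and 13.3 CPM), outer follicle-like (6.25 and 26.0 CPM) and hair lineage-like cells (2.84 and 19.9 CPM). In fibroblast-like cells Porcn differed little, at 12.9 and 12.2 CPM (-0.08, -0.87 to 0.65). Nkd2, an intracellular antagonist, was at 0.919 and 2.40 CPM. Among secreted modulators Sfrp2 (1.20 and 2.92 CPM) and Wif1 (2.62 and 5.84 CPM) were higher and Sfrp1 (66.8 and 17.7 CPM) and Rspo3 (0.324 and 0.153 CPM) lower. The Rspo3 values came from only 25 and 15 UMIs, while fibroblast-like cells held Rspo3 at 241 and 155 CPM.

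With the control makeup of the epithelium the number of lower pathway genes was 5. Among 16 receptors and co-receptors 5 were lower and 0 higher over all epithelial cells, beside 9.88% and 11.8% of all genes. Fzd2 was at 57.3 CPM in the control and 26.2 CPM in the induced epithelium, and Fzd7 at 47.7 and 17.2 CPM. Fzd4 was at 2.01 and 0.295 CPM, Fzd9 at 0.350 and 0.153 CPM (only 27 and 15 UMIs), and Ror1, a receptor of Wnt5a, at 4.30 and 0.254 CPM. The intracellular genes Nkd1 (5.10 and 2.14 CPM) and Tcf7l2 (96.7 and 48.0 CPM) were lower. Of the 9 other Wnt ligands 3 passed the minimum, and Wnt7a (3.54 and 0.224 CPM) and Wnt5b (9.48 and 4.47 CPM) were lower. Several of these differences were smaller within classes. In outer follicle-like cells the log2 ratio was -0.55 for Fzd2, -0.71 for Fzd7 and -0.50 for Tcf7l2, and in basal cells -0.12 for Fzd2, -0.97 for Fzd7 and -0.20 for Tcf7l2. Of the receptors, Fzd3 and Fzd5 were higher and Fzd4, Fzd9 and Ror1 lower by 2-fold or more in outer follicle-like cells. In basal cells Wnt7a was at 16.8 and 0.343 CPM (-5.61), the reverse of its close relative Wnt7b.

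Within classes the pathway genes past 2-fold differed. In basal cells 6 of 39 were higher and 3 lower, beside 10.9% and 7.59% of all genes. Among the 6, Sostdc1, a secreted Wnt and BMP antagonist, was at 207 and 450 CPM, Fzd3 at 10.7 and 28.7 CPM and Dkk3 at 4.55 and 15.2 CPM. The 3 were Wnt7a, Ror1 (10.3 and 0.114 CPM) and Lef1 (28.7 and 11.03 CPM). In outer follicle-like cells 7 of 48 were higher and 4 lower, beside 13.2% and 6.45%. The target genes Lef1 (5.95 and 16.9 CPM) and Sp5 (1.11 and 7.74 CPM) and the inhibitors Wif1 (1.03 and 16.9 CPM) and Sfrp2 (0.806 and 10.3 CPM) were higher, and Sfrp1, another inhibitor, was at 121 and 42.4 CPM. Lef1 thus moved in opposite directions in the basal layer and the outer follicle, a difference that was not tested. These class levels pool clusters that came mostly from a single library, and no shared-cluster values are given for the pathway genes.

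In spinous cells 3 of 33 pathway genes were higher and 7 lower (8.89% and 15% of all genes), and in hair lineage-like cells 5 of 40 were higher and 6 lower (11.3% and 8.09%). Nkd2 was at 4.26 and 94.2 CPM in the hair lineage and Sp5 at 76.8 and 19.9 CPM. In fibroblast-like cells 5 of 45 were higher and 2 lower (8.22% and 7.54%). The secreted inhibitors split there, with Wif1 at 88.9 and 263 CPM and Sfrp1 at 11.7 and 34.8 CPM, while Sfrp2 was at 771 and 219 CPM and Dkk2 at 186 and 74.8 CPM.

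The ligands also differed in which genes shared their pattern over 32 profiles of class by library, as Pearson correlations of log2(CPM + 5). The profiles of 1 library share depth and free RNA, and no test applies. Wnt3 was most like Gm3234 (0.93), Ltb4r2 and Stk33, Wnt3a like Slc2a5 (0.90), Sox15 and Pcsk2, and Wnt4 like Klrg2 (0.91), 9330162012Rik and Fat2. Wnt5a was most like Ror2 (0.94), Shox2 and Hoxc9, Wnt6 like Ctnnal1 (0.84), Ssbp3 and Lgr6, and Wnt7b like Slc38a4 (0.90), Hotairm1 and Urah. Wnt10a was most like Clec2l (0.80), Smoc2 and Fgfr2, Wnt10b like Kremen2 (0.85), Bmp2 and Sox21, Wnt11 like Slc4a4 (0.78), Adcy1 and Adamts5, and Wnt16 like Col7a1 (0.86), Ucn2 and Smoc2. Among the ligands themselves Wnt4 and Wnt7b were closest (0.86), then Wnt3 and Wnt4 (0.81), the neighbours Wnt6 and Wnt10a stood at 0.75, and Wnt5a and Wnt7b were farthest apart (-0.45).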

How the data were processed

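The authors deposited unnormalised UMI counts per gene and barcode for both libraries, made with Cell Ranger 6.0.0 on mm10 per the submitters' processing notes; no barcode had under 500 UMIs. Barcodes with at least 1000 UMIs, 500 genes and under 15% mitochondrial UMIs were kept (5178 control, 5258 induced), and the 7% with the highest Scrublet score were removed per library, since the automatic threshold called 3 and 1. Cells were clustered with scanpy 1.11.5 and leidenalg 0.10.2 (2000 variable genes, 30 components, 15 neighbours, resolution 1.0, then 2.0). A class name needed at least 3 markers detected in 25% of cells and raised 1.5-fold. Levels have exact Poisson intervals, ratios exact conditional binomial intervals and shares Clopper-Pearson intervals. Ratios needed 50 cells per library and 20 UMIs over both, and shares left out 56 control and 353 induced cells under 2000 UMIs. Amplified molecules were collapsed by UMI, and intervals cover counting error only. Named were all 10 ligands, pathway genes past 2-fold in all epithelial cells, and the 3 most alike genes per ligand; pathway genes named in other classes and clusters named singly were chosen after their values were seen. The members and lists were chosen with earlier results of these data known. The ratio rule was checked on simulated counts. Of 32285 gene identifiers 32235 were found in GENCODE M21 on GRCm38, which gave gene positions and 3′ UTRs; promoters and the microRNA are from RefSeq.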

Additional observations from a re-analysis of the deposited data

Results flagged for a closer look

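These log2 ratios, induced over control, went in opposite directions in different classes for the same ligand; the differences between classes were not tested, since each group is 1 library. Wnt4 was at 1.02 in fibroblast-like and -1.41 in spinous epidermal-like cells. Wnt6 was at 1.10 in fibroblast-like, -2.90 in spinous epidermal-like and -1.01 in hair lineage-like cells. The fibroblast-like values came from 53 and 38 UMIs for Wnt4 and 118 and 89 UMIs for Wnt6. In fibroblast-like clusters with cells of both libraries they were 1.04 (-0.06 to 2.11) for Wnt4 and 0.50 (-0.31 to 1.28) for Wnt6. Wnt10a was at 1.73 in companion layer-like cells, from 6 and 18 UMIs, and -3.70 in spinous epidermal-like cells; with doublets kept the companion value was -0.31. Wnt16 was at 1.92 in outer follicle-like and -3.24 in spinous epidermal-like cells. In hair lineage-like cells it was at -3.36 against a floor of 3 counts, with an upper limit of -2.98. The spinous values set cells with different basal marker levels against each other, and with cluster E8 added they were -0.71 for Wnt4, -1.52 for Wnt6, -0.55 for Wnt10a and -1.71 for Wnt16. Also, the outer follicle value of Wnt16 turned to -0.12 (-1.62 to 1.09) in clusters with cells of both libraries, which were pooled with unequal makeup.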

How the results depend on the processing

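Of 66 ligand ratios with alternatives, 443 of 482 recomputed values kept the sign, and of the 23 ratios past 2-fold, 162 of 165 values kept the sign and 141 stayed past 2-fold. The 3 that turned were Wnt10b (-0.68) and Wnt16 (-0.12) in outer follicle-like cells, in clusters with at least 20 cells of each library, and Wnt10a in companion layer-like cells with doublets kept (-0.31). The first of these alternatives and the addition of E8 to the spinous cells, which left 3 ligands lower, were chosen after seeing the data. In all epithelial cells 0 ligands were higher by 2-fold with the control makeup and 2 with the mean of per-cell CPM. In basal cells 1 ligand, Wnt16, was lower with doublets kept, the stricter cell filter (5000 UMIs, 2000 genes, 10% mitochondrial), resolution 1.0, median-gene scaling or per-cell means. In hair lineage-like cells 2 were higher with doublets kept, the stricter filter or at least 1 UMI and 0 with at least 50 UMIs or per-cell means, and 1 was lower with at least 50 UMIs, median-gene scaling or per-cell means. In fibroblast-like cells the number higher was 1 with 1 CPM added, with library-centred clustering or in shared clusters, 0 with per-cell means and 4 with at least 1 UMI, and 1 was lower with library-centred clustering or in shared clusters. Seed matches numbered 2 with 6 bases and 0 with 8. Pathway genes higher numbered 1 with 1 CPM added, and lower 6 with 1 CPM added and 5 with the control makeup. With library-centred clustering no hair lineage-like ratio could be given, and at resolution 1.0 no spinous ratio. The cause of these changes was not tested, beyond the cells and genes each setting adds or removes. No paired analysis was possible because each group is 1 library.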

Other observations

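Some ligand levels lay in clusters that took no class name. N21, with 25 control and 9 induced cells and led by Coch, Crabp1 and Igf1, held Wnt10a at 157 CPM, Wnt5a at 167 CPM and Wnt16 at 63.3 CPM in its control cells, the highest Wnt10a level among the non-epithelial clusters with at least 20 cells of a library. E18, with 24 control and 173 induced cells and led by Krt79, Dpysl3 and Klk7, held Wnt4 at 56.5 and 68.7 CPM and Wnt7b at 9.42 and 37.7 CPM. Sebaceous gland-like cells, 214 in the control and 3 in the induced library, held little ligand RNA in the control library, with Wnt4 at 14.3 CPM and Wnt6 at 2.98 CPM, near the melanocyte-like background of 12.3 and 2.05 CPM.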
